A study of Homo sapiens with 9 samples.

Results

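Acyl-CoA synthetases are the enzymes that couple a fatty acid to coenzyme A, the step without which a fatty acid can be neither oxidised nor built into a lipid. In all, 9 were chosen for this account: ACSF2, ACSF3, ACSL1, ACSL3, ACSL4, ACSL5, ACSS1, ACSS2 and ACSM3. They were taken by gene symbol from 2 deposited tables of ribosome footprints and selected on the ratio of compound to vehicle reads, with the low value of ACSF2 with PF8503 already known, so every change given here for them is a description and carries no test. Of the 9 genes, 8 have a row in both tables, which list 9157 and 8839 transcripts and have 8775 transcripts in common. ACSS1 has a row in neither and is not analysed here.

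The footprints came from Huh7 cells, a human liver carcinoma line, that received PF8503 or PF846, each at 1.5 μM, or 0.5% DMSO as the vehicle, in every case for 1 hr. Both compounds are translation inhibitors that stall the ribosome on particular nascent chains, and the question put to the tables was which transcripts lose reads downstream of a stall with each of them. Each condition had 3 libraries, 9 in all, numbered as replicates in the labels. The study's methods describe them as biological triplicates, and all came from 1 cell line. All 13 hepatocyte markers examined were listed in both tables, whereas PTPRC, CD3E, COL1A1, DCN and VWF, which mark blood cells, fibroblasts and endothelium, were listed in neither. Of the 15 markers of other cell types, LYZ, PECAM1, VIL1 and CDX2 were listed in both.

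The family divides by the chain that each enzyme activates. The ACSL enzymes take long-chain fatty acids, ACSM3 takes medium chains, and ACSS1 and ACSS2 take acetate, in mitochondria and in the cytosol and nucleus respectively. ACSF2 and ACSF3 stand apart in sequence: ACSF2 is a mitochondrial synthetase of medium-chain acids and ACSF3 activates malonate for fatty acid synthesis in the same organelle. ACSL4 prefers polyunsaturated acids such as arachidonate and is known as a determinant of ferroptosis, a death by lipid peroxidation in which ACSF2 has also been implicated.

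To show how the coding sequences begin, the first 30 codons are given for ACSF2 and ACSF3, the members with the lowest ratio for PF8503 and PF846, and for the members with the most and the fewest hydrophobic codons. Codons with T in the middle position, which encode phenylalanine, leucine, isoleucine, methionine or valine, are in capitals. All run 5′ to 3′ and come from GENCODE version 44 on GRCh38.
ACSF2: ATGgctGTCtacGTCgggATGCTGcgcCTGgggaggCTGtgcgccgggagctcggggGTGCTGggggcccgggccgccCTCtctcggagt
ACSF3: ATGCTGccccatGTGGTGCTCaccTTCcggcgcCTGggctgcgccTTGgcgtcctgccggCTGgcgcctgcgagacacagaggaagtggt
ACSL5: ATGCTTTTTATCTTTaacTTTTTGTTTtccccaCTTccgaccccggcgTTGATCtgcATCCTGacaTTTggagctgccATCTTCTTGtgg
ACSS2: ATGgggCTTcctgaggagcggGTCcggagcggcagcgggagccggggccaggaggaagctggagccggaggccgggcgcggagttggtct

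ACSF2 (ENSG00000167107) lies on the forward strand at chr17:50426158-50474845, with its start codon in exon 1 of 16 and a coding sequence of 615 codons. After the start codon, 9 of its codons 2 to 30 had T in the middle, 5 of them for leucine. At least as many were found in 31.4% of the 8697 genes of the tables that were matched to a coding sequence, whose median was 7. ACSF3 (ENSG00000176715), at chr16:89088375-89164121 on the forward strand with its start codon in exon 3 of 11, had 8 such codons, also with 5 for leucine. ACSL5 had 16, a number reached by 0.747% of genes, and ACSS2 had 2, a number reached by 96.2%. ACSL5 and ACSS2, at the extremes of this count, were not the members with the lowest ratios below. Whether the count bears on the ratios was not tested.

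The level of each enzyme with vehicle was taken from the table for PF846, in which ACSF2 was counted over its longer region, and divided by the coding length less the end codons that the authors left out. The vehicle mean is the denominator of the ratio on which the members were selected, so these levels are not independent of that choice. ACSL4 had the highest level, 891 ± 140 normalised reads per 100 codons (SD, n = 3), followed by ACSL3 with 617 ± 110. Their libraries did not overlap. Both stood far above the median of 83.3 over 8342 transcripts, higher than 93.2% and 90.0% of them. ACSF2 followed with 75.3 ± 10.9 and ACSL1 with 67.2 ± 5.6, and their libraries overlapped. ACSS2 had 47.4 ± 10.3 normalised reads per 100 codons. ACSM3, ACSF3 and ACSL5 were the lowest, with 21.7 ± 1.97, 17.4 ± 3.21 and 14.0 ± 1.63, and the libraries of the last pair overlapped. The low members rest on few reads. ACSF3 had between 36 and 154 counts in a library and ACSL5 between 43 and 149, against 2251 to 6698 for ACSL3 and 2878 to 8418 for ACSL4.

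**Figure D1:**
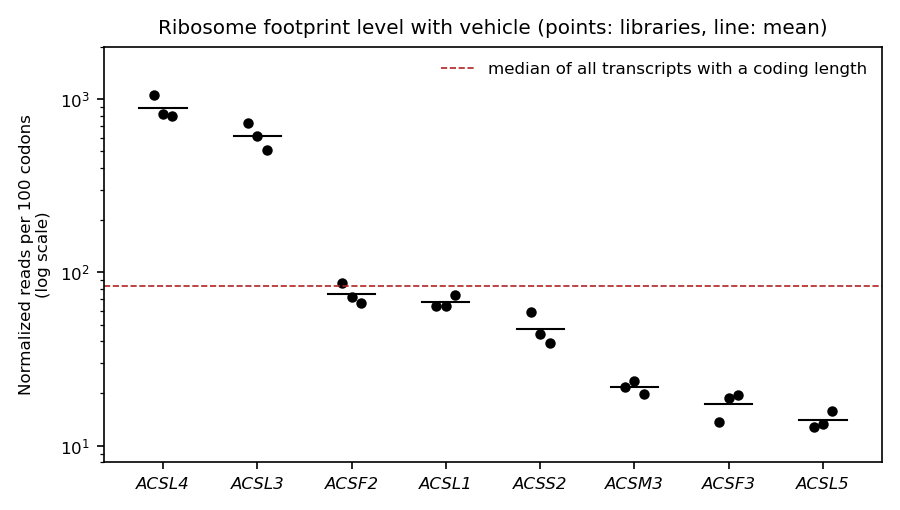
Ribosome footprint level of 8 acyl-CoA synthetases with vehicle, in normalised reads per 100 codons on a log scale; points are the 3 vehicle libraries, black lines their means, and the dashed line the median of 83.3 over all transcripts with a coding length. ACSL4 and ACSL3 stand above the dashed line in every library, whereas the means of the other members lie below it.

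With PF8503 the reads of ACSF2 were at 41.7% of the vehicle level. No mRNA level was measured in these libraries. Fewer ribosomes over the counted part of each mRNA and less mRNA therefore cannot be told apart for any transcript here. Reads upstream of the counted part do not enter the value. The authors' means were 439 normalised counts with vehicle and 183 with PF8503, a log2 ratio of -1.26. In single libraries ACSF2 had 508, 416 and 392 normalised counts with vehicle, from 402, 445 and 507 reads. With PF8503 it had 207, 149 and 194, from 143, 158 and 240 reads. All 3 libraries with PF8503 were below all 3 vehicle libraries, and the highest of them was 207 against a lowest vehicle value of 392. Of the 8950 transcripts with counts for every library, 3.89% lay wholly below vehicle in this way. The log2 difference had an SE of 0.18 over the libraries, and ACSF2 was the 12th lowest of 9157 transcripts. Among the 500 transcripts nearest to it in mean level, the middle 95% of log2 ratios ran from -0.31 to 0.24. ACSF2 was selected on this ratio, and its counted region was chosen by the difference between compound and vehicle. Its rank and this range are therefore no test.

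With PF846 the values of ACSF2 were close to those with vehicle. The authors' means were 449 and 415 normalised counts, 92.4% of vehicle and a log2 ratio of -0.11. The vehicle libraries had 521, 432 and 394 normalised counts and the PF846 libraries 394, 471 and 380. The groups overlapped, the SE of the log2 difference was 0.15, and the value lay within the middle 95% of the 500 transcripts of like level, -0.16 to 0.17.

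The 2 values for ACSF2 cover different stretches of its coding sequence. The same vehicle libraries enter both tables, and they gave ACSF2 402, 445 and 507 reads in the table for PF8503 but 450, 505 and 557 in that for PF846. The shorter region thus held 89.3%, 88.1% and 91.0% of the vehicle reads of the longer one, and 89.6% in the 3 libraries together (Wilson 95% interval 87.9 to 91.0%, for counting error only). The 158 vehicle reads left out lie upstream, since the authors began to count later in a transcript where they found a clear stall. Such a shorter region was used in the table for PF8503 for 92 of the 8775 common transcripts, and ACSF2 was the only acyl-CoA synthetase among them. The other 7 members had identical vehicle counts in both tables. All 92 had a log2 ratio below 0 with PF8503, with a median of -0.58, and 5 were lower than ACSF2. The choice of region uses the difference between compound and vehicle, so a low value there is not independent of it, and the log2 ratios of ACSF2 with PF8503 and PF846 are set side by side without a difference between them.

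**Figure D2:**
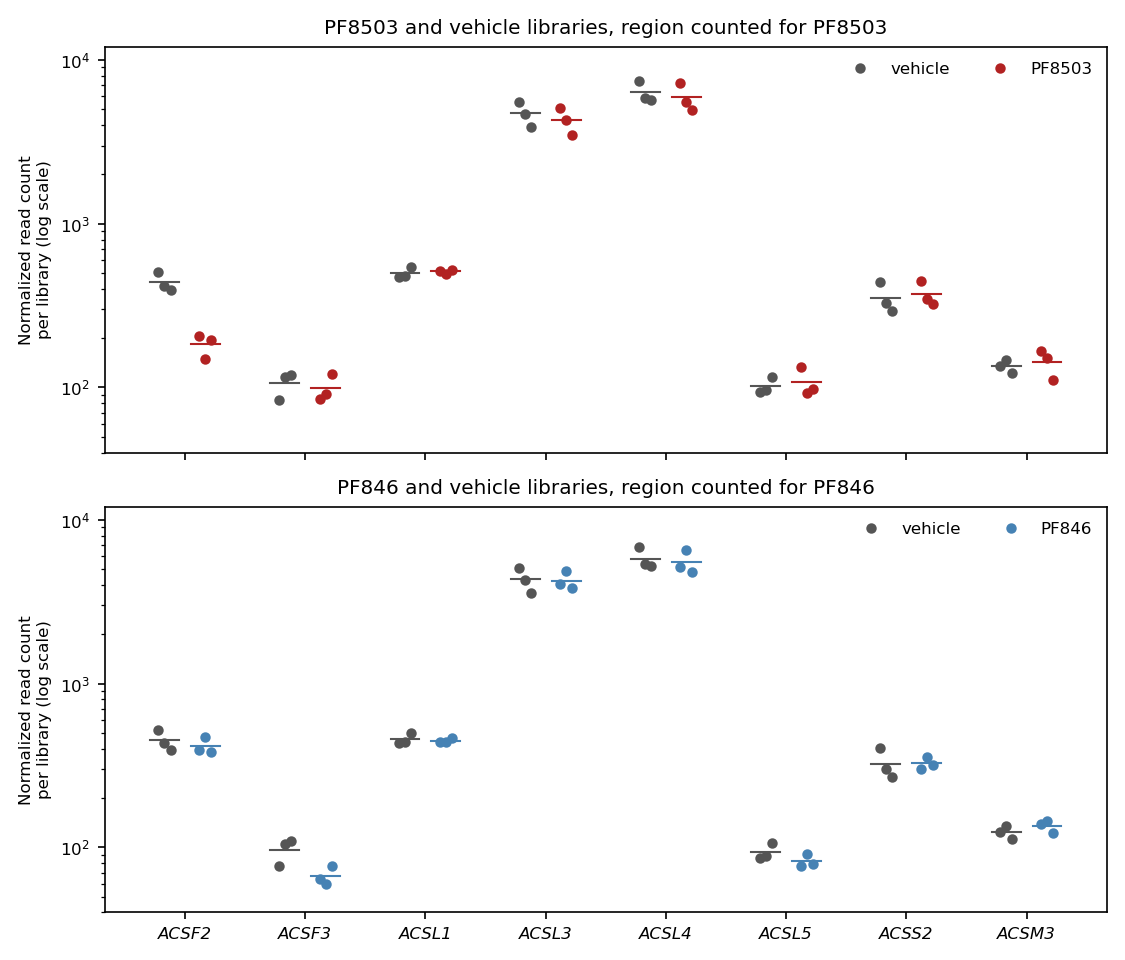
Normalised read counts of 8 acyl-CoA synthetases in each library on a log scale, with the vehicle and PF8503 libraries above and the vehicle and PF846 libraries below; points are libraries and lines the means of 3. The ACSF2 libraries with PF8503 lie at 149 to 207, all below the vehicle libraries at 392 to 508, and no other member separates from vehicle in either panel.

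ACSF3, the malonyl-CoA synthetase, showed the opposite order of the compounds. With PF846 its authors' mean was 66.8 normalised counts against 96.9 with vehicle, 69.0% of vehicle and a log2 ratio of -0.54 with an SE of 0.20. The PF846 libraries had 64.4, 59.2 and 76.7 normalised counts, from 36, 43 and 134 reads. The vehicle libraries had 76.4, 105 and 109, from 66, 123 and 154 reads. The highest PF846 library thus passed the lowest vehicle library by a small margin, so the groups overlapped. The log2 ratio was -0.47 without the vehicle library at 105, -0.44 without that at 109 and -0.46 without the PF846 library at 59.2. ACSF3 was the 33rd lowest of 8839 transcripts, and the middle 95% of the 500 transcripts of like level ran from -0.32 to 0.30. With PF8503 the vehicle libraries had 83.3, 115 and 119 normalised counts and the compound libraries 85.3, 91.2 and 120, a log2 ratio of -0.10 with an SE of 0.22. These values overlapped throughout. The same codons of ACSF3 were counted in both tables, and the log2 ratio was higher with PF8503 than with PF846 by 0.44, with an SE of 0.19 from the compound libraries. ACSF3 had the lowest PF846 ratio of members that were selected on these ratios. Neither its rank nor this difference is therefore a test.

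The libraries of the long-chain synthetases overlapped with vehicle with both compounds. ACSL4 had 7479, 5852 and 5675 normalised counts with vehicle and 7278, 5549 and 4971 with PF8503, a log2 ratio of -0.09 with an SE of 0.21. With PF846 it had 5151, 6521 and 4820 against 6851, 5352 and 5194, a log2 ratio of -0.08 with an SE of 0.18. ACSL3, which sits on lipid droplets and the endoplasmic reticulum, had log2 ratios of -0.14 with PF8503 and -0.03 with PF846. For ACSL3 the vehicle libraries ran from 3884 to 5571 and the PF8503 libraries from 3486 to 5071. ACSL1, the main long-chain synthetase of liver, varied least, with 471, 478 and 546 normalised counts with vehicle and 517, 495 and 523 with PF8503. Its log2 ratios were 0.04 and -0.03, each with an SE of 0.07. ACSL5, an enzyme of mitochondria and endoplasmic reticulum, had log2 ratios of 0.09 with PF8503 and -0.17 with PF846, with SEs of 0.19 and 0.12. Its libraries overlapped with vehicle in both tables.

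The enzymes of shorter chains were likewise close to vehicle. ACSS2, which makes acetyl-CoA outside mitochondria, had 439, 327 and 292 normalised counts with vehicle and 444, 347 and 325 with PF8503. Its log2 ratios were 0.07 with PF8503 and 0.01 with PF846. ACSM3 had 135, 147 and 122 normalised counts with vehicle and 168, 151 and 111 with PF8503. Its log2 ratios were 0.09 and 0.13, with SEs of 0.19 and 0.11, and its libraries overlapped in both tables. No member lay wholly above vehicle with either compound, where 2.99% of transcripts did with PF8503 and 2.3% with PF846. For the 6 members other than ACSF2 and ACSF3, the log2 ratio with PF8503 less that with PF846 ran from -0.12 for ACSL3 to 0.26 for ACSL5, the latter with an SE of 0.18.

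**Figure D3:**
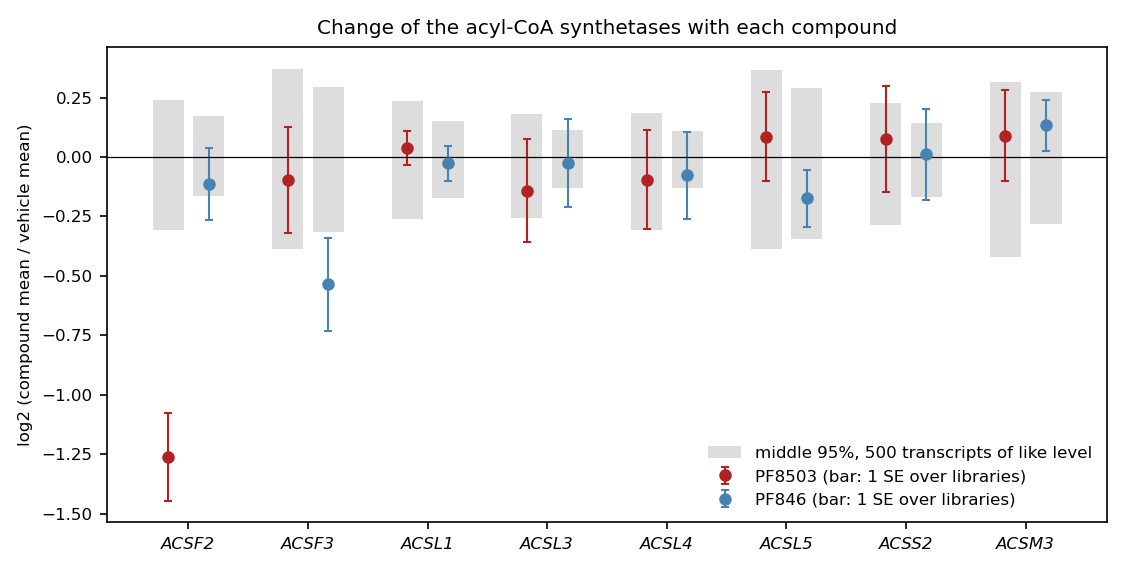
Log2 ratio of the compound mean to the vehicle mean for 8 acyl-CoA synthetases with PF8503 and PF846; bars are 1 SE over the libraries and grey bands the middle 95% of the 500 transcripts nearest in mean level. ACSF2 with PF8503 (-1.26) and ACSF3 with PF846 (-0.54) lie below their bands, and the other values lie inside them. The members were selected on these ratios, so the bands are no test.

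Counted together, 1 of the 8 members reached a log2 ratio of -0.5 or lower with PF8503, where 1.08% of all transcripts did, and 1 of 8 with PF846, where 0.396% did. These were ACSF2 and ACSF3 respectively. None reached 0.5 or higher with either compound, against backgrounds of 0.24% and 0.0792%. The median over the members was -0.03 with PF8503 and -0.05 with PF846, beside 0.01 and 0.00 over all transcripts. Without ACSF2 the medians were 0.04 and -0.03. As ACSF2 was among the reasons for the choice of genes, nothing is read from these counts.

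Part of the spread between libraries was shared across conditions. Over 8435 transcripts counted alike, the deviations of each vehicle library from the mean of its condition correlated best with those of 1 PF8503 and 1 PF846 library, with Pearson r of 0.36 to 0.65 in the 9 pairs within these sets and -0.52 to 0.19 in the other 18 pairs. Deviations within a condition sum to 0, so some negative values are built in, and the points share library size and transcript level. ACSF2, ACSL3, ACSL4 and ACSS2 each had their highest value of every condition in the same set. ACSF3 had its highest values in another set, in which ACSL3 and ACSL4 had their lowest. Within the sets the log2 ratio of ACSF2 with PF8503 was -1.30, -1.49 and -1.02, and with PF846 it was -0.14, -0.13 and -0.05. For ACSF3 the ratio with PF846 was -0.37, -0.71 and -0.51 in the sets, and its groups overlapped. With PF8503 it was 0.03, -0.33 and 0.01. ACSL3 had -0.14, -0.14 and -0.16 with PF8503, close together in the sets although its libraries ran over a wide range, and -0.07, -0.10 and 0.11 with PF846. ACSL4 was below 0 in each set with both compounds, each compared with the same vehicle libraries. It had -0.04, -0.08 and -0.19 for PF8503 and -0.07, -0.06 and -0.11 for PF846. The sets were matched on these same data, so a shared sign or a like size across them is not support for a change. What the sets stand for was not tested, and by the lane codes in the labels no sequencing lane held 2 conditions, so an effect of lane cannot be told apart from one of compound.

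The transcripts whose pair of log2 ratios lay nearest to that of ACSF2, among those with a vehicle mean of at least 100, were RAB3GAP1, DNAJB9, KDELR3, NPPB and PRKAR2A. The distance in the plane of both ratios was 0.08 for RAB3GAP1, which encodes the catalytic subunit of a Rab GTPase-activating complex, with -1.21 for PF8503 and -0.06 for PF846. DNAJB9, a chaperone of the endoplasmic reticulum, had -1.14 and -0.06. KDELR3, a receptor that returns proteins to that compartment, had -1.22 and -0.28. NPPB, a natriuretic peptide, had -1.08 and -0.11, and PRKAR2A, a regulatory subunit of protein kinase A, had -1.42 and 0.00. As for ACSF2, all 5 were counted over a shorter region in the table for PF8503 than in that for PF846.

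**Figure D4:**
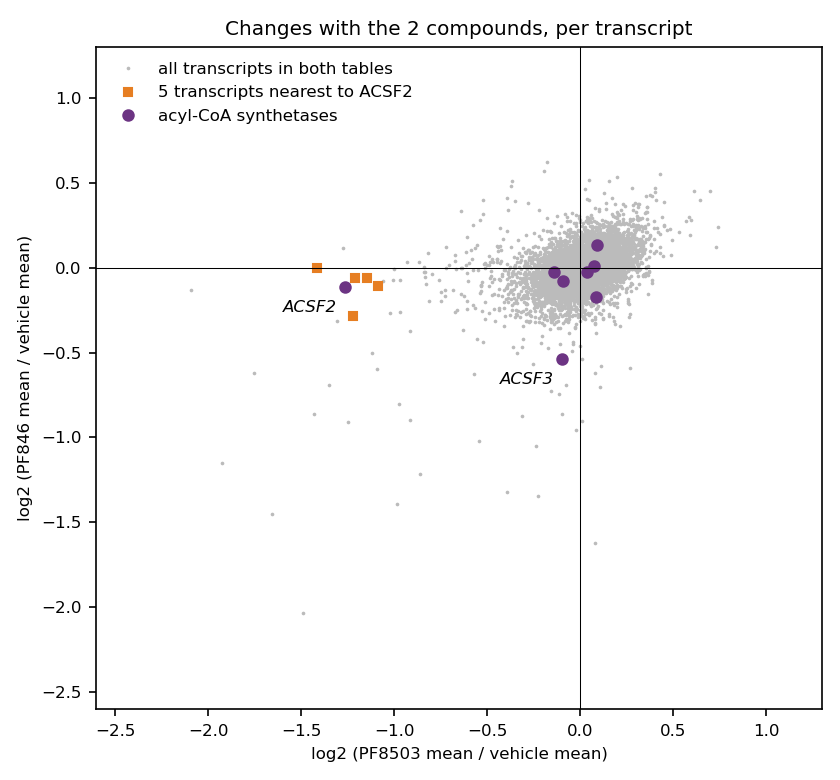
Log2 ratio to vehicle with PF8503 (horizontal) and with PF846 (vertical) for 8773 transcripts, with 2 further transcripts outside the plotted range; purple points are the acyl-CoA synthetases and orange squares the 5 transcripts nearest to ACSF2. ACSF2 lies at -1.26 and -0.11 among the orange squares, ACSF3 at -0.10 and -0.54, and the other members lie in the central cloud.

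The other genes of acyl-CoA metabolism give the surroundings of the family. Of 18 further acyl-CoA synthetases, 6 were listed in each table and none passed 0.5 in either direction. The largest ratios were 0.10 for SLC27A4, a fatty acid transport protein with synthetase activity, with PF8503, and 0.19 for ACSM2B, a medium-chain synthetase with a near-identical neighbour in ACSM2A, with PF846. All 19 genes of mitochondrial fatty acid oxidation were listed, with medians of -0.03 and -0.04 and none past 0.5. The lowest there were CPT1A, the carnitine palmitoyltransferase that admits long chains to the mitochondrion, at -0.20 with PF8503, and ACADS, the short-chain dehydrogenase, at -0.17 with PF846. Acyl-CoA synthetases and the oxidation that they feed were thus both near 0 in the median.

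Of 16 genes that bind or hydrolyse acyl-CoA, 9 were listed and none passed 0.5. The thioesterase ACOT13 was the lowest with both compounds, at -0.37 and -0.22. It had 813, 832 and 692 normalised counts with vehicle against 598, 654 and 561 with PF8503, and 745, 761 and 633 against 623, 620 and 595 in the table for PF846. Its libraries lay wholly below vehicle in both tables, as those of 3.89% and 2.83% of all transcripts did. Both comparisons use the same vehicle libraries, so they are not independent. The acyl transferases that build phospholipids, triglycerides and cholesteryl esters were sought by 20 symbols, some of them older names of the same gene. With PF8503, 13 were listed, with a median of 0.10 and none below 0, where 45.3% of all transcripts were. AGPAT3 was the highest at 0.31, and its libraries overlapped with vehicle. AGPAT5 at 0.12 and DGAT2 at 0.11, which were named after their values were seen, were the transferases whose libraries lay wholly above vehicle, as those of 2.99% of all transcripts did. With PF846, 12 were listed with a median of 0.00, and the largest value was -0.14 for LPCAT4.

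Mitochondrial fatty acid synthesis, the pathway that ACSF3 supplies with malonyl-CoA, had 7 of 9 genes listed. NDUFAB1, the mitochondrial acyl carrier protein, was the single list gene past 0.5, with a log2 ratio of -0.57 with PF846. It had 875, 925 and 681 normalised counts with vehicle and 596, 625 and 453 with PF846, again without overlap. With PF846, 2.83% of all transcripts lay wholly below vehicle in this way. Its vehicle mean was 827 in the table for PF846 and 1911 in that for PF8503, so it was counted over a shorter region for PF846. As for ACSF2, the choice of region uses the difference between compound and vehicle, so the low value is not independent of it. With PF8503 the log2 ratio of NDUFAB1 was -0.25, and its libraries overlapped with vehicle. LIPT1 at -0.22 and LIAS at -0.07, named after their values were seen, also lay wholly below vehicle with PF846. The medians of this list were -0.05 with PF8503 and -0.03 with PF846.

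Of 16 symbols for genes of ferroptosis beside ACSF2 and ACSL4, 14 were listed, with medians of 0.05 and 0.01 and none past 0.5. FTL, the ferritin light chain, was the highest with PF8503, at 0.33. It had 3434, 3360 and 3478 normalised counts with vehicle and 4927, 4017 and 3993 with PF8503, without overlap, where 2.99% of transcripts lay wholly above vehicle. With PF846 FTL was at 0.09 and overlapped with vehicle. FTH1 at 0.23 and EMC2 at -0.23 with PF8503, named after their values were seen, also did not overlap with vehicle. EMC2 lay wholly below it, as 3.89% of transcripts did. TFRC, the transferrin receptor, was at -0.30 with PF8503 and -0.17 with PF846. Its vehicle means were above the limit of 8000 for finding single counts, so neither spread nor overlap is known.

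**Figure D5:**
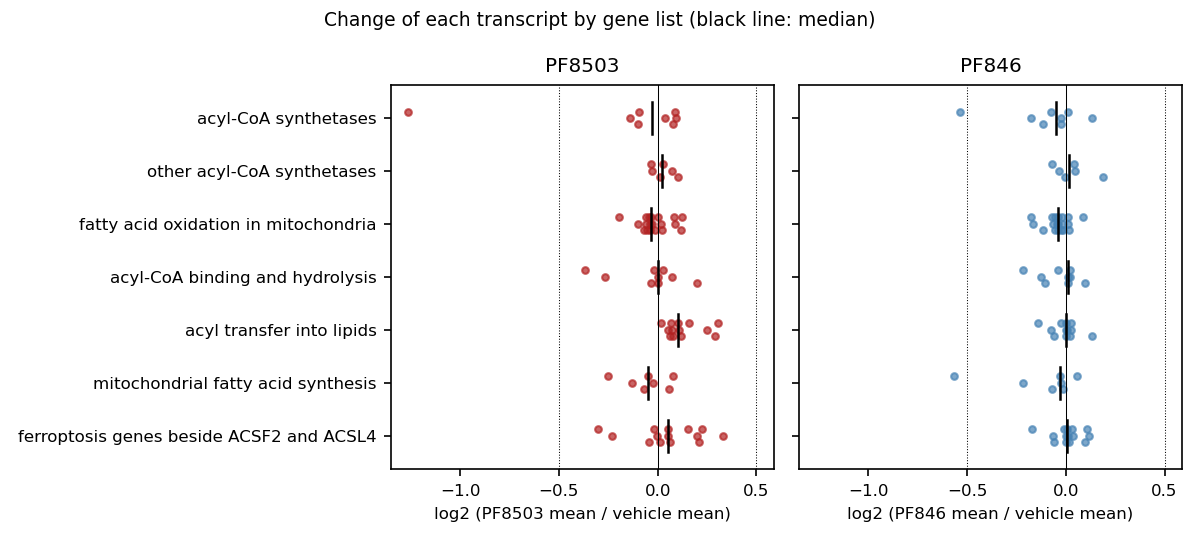
Log2 ratio of each listed transcript by gene list, with PF8503 at left and PF846 at right; points are transcripts, black lines medians, and dotted lines mark -0.5 and 0.5. ACSF2 with PF8503, ACSF3 with PF846 and NDUFAB1 with PF846 are the points beyond the dotted lines, and the 13 acyl transferases with PF8503 all lie above 0, where 45.3% of all transcripts were below it.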

How the data were processed

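Ribosome-protected fragments of 9 Huh7 libraries were sequenced by the authors, with 3 libraries for each of PF8503, PF846 and vehicle. Per the study's methods, reads were aligned with Bowtie to canonical coding transcripts of GENCODE 24 on GRCh38, and those with 1 position were kept. Reads were summed from 10 codons after the start, or 3′ of the stall where the Z score of the DMax position was at least 2, and up to 10 codons before the end. The authors compared transcripts with over 30 counts with DESeq. Versions are not given in the sources used here. As signal, the authors deposited means, over the libraries of a condition, of counts divided by size factors. Columns of fold change, log2 fold change and p-values hold the authors' own comparisons and were not used.

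The log2 ratio was taken of the 2 means, with no pseudocount. The means carry up to 15 digits, and a mean of 3 whole counts divided by 3 size factors takes only certain values. Whole counts of single libraries were therefore sought by lattice reduction, up to a mean of 8000. A single solution was found for 99.8% to 99.99% of transcripts in each condition, and the size factors recomputed from the counts differed from those used by at most 0.053%. Of 41 and 70 sets of size factors tried on the transcripts of lowest mean, the one kept missed its own size factors by 2.34% and 1.33%, and the next best by 63.2% and 28.2%. The vehicle counts came out identical in both tables for 8462 of 8593 transcripts (98.5%), and for the other 131 one table had fewer or equal counts in every library. On 1981 simulated transcripts all 6 counts were found in 100%. Their control means were all drawn below the vehicle means of ACSL3 and ACSL4. The counts found summed to between 3752609 and 11627455 per library. Libraries are listed by size factor and cannot be tied to the labels' replicate numbers. SD and SE are over libraries (n = 3).

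The genes and lists were chosen with earlier results of these data known. Genes named are the 9 synthetases, from each list the largest absolute log2 ratio in each table and any past 0.5, and the 5 transcripts nearest to ACSF2. Further list genes are marked as named after their values were seen. Codon features replaced planned protein features and were chosen after the data were seen. Codons come from GENCODE 44, in which 94.3% of 9221 symbols matched. Levels per codon assume that the whole coding sequence was counted. Regions were called different at a log2 deviation of vehicle means over 0.002. Alternatives were centring, a pseudocount of 1, a mean of at least 100, thresholds of 0.3 and 1, and leaving out each library; means of log2 values, total-count scaling and library sets were added after the data were seen. Python 3.11.15 was used with numba 0.67.0, numpy 2.4.6, scipy 1.17.1, pandas 2.3.3 and matplotlib 3.10.9.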

Additional observations from a re-analysis of the deposited data

How the results depend on the processing

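The log2 ratio of ACSF2 with PF8503 stayed between -1.36 and -1.13 when each library was left out in turn, and ran from -1.27 to -1.26 under centring, an added count of 1, means of log2 values, total-count scaling and library sets. With PF846 it was below 0 in each of the library sets, which were matched on these same data. On leaving out a library it ran from -0.21 to 0.01, above 0 only without vehicle library a. The median over the synthetases then ran from -0.08 to 0.02 for PF8503, and from -0.18 to 0.03 for PF846. The count past 0.5 was 1 with PF8503 under every alternative tried. With PF846 it ranged from 0 to 1 on leaving out a library, as ACSF3 came to -0.47 without vehicle library b, -0.44 without vehicle library c and -0.46 without PF846 library b. It was also 0 at a threshold of 1, and 0 with a mean of at least 100, since the mean of ACSF3 is below that. Of 176 recomputed log2 ratios of single synthetases, 17 turned sign, the largest of them ACSF2 with PF846 at -0.11. The share of vehicle reads in the shorter region of ACSF2 was 89.4% from the means, and 89.6% with another constant or from the counts.

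No paired analysis was possible because the counts found carry no replicate number of the labels; that is, none by the study's own numbers. Matching libraries by the sets found in the data, as an alternative added after seeing them, gave mean log2 ratios for ACSF2 of -1.27 with PF8503 and -0.11 with PF846. ACSF3 and ACSL5, with as few as 36 and 43 reads in a library, are limited by counting error.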
